A study of Mus musculus with 8 samples.

Results

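Promyelocytes are the neutrophil precursors that build the primary (azurophil) granules, and 5 genes that mark them were followed here: Mpo, Elane, Prtn3, Ctsg and Ms4a3. They were chosen by name, as genes of primary-granule proteins and of the promyelocyte stage, and are 5 of the 52784 genes in the table of estimated counts. A count was present for all 5 in at least 1 library, as it was for 25066 genes in all. RNA came from mononuclear cells of pups aged 1 week, harvested from the whole body with the lymphoid organs, and sorted magnetically and by flow cytometry into trafficked maternal cells and recipient cells. The sort used H2K-b, the class I haplotype of the B6 strain, for the former and H2K-d, that of BALB/c, for the latter. Each origin gave 4 libraries: uninjected, DC control mIUT, DC control pIUT and DC-depleted pIUT, where IUT is intrauterine transplantation, mIUT used donor marrow of the maternal B6 strain and pIUT donor marrow of the paternal BALB/c strain.

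Every pup was an F1 of a BALB/c male and a CD11c-DTR dam, a line on the B6 background in which the diphtheria toxin receptor follows CD11c, so that diphtheria toxin (DT) removes dendritic cells (DC) from the dam for a time. Dams of the DC-depleted group received DT at 5 ng/g and dams of the DC control groups saline, both on embryonic day 13, and fetuses of the IUT groups received 5000000 marrow mononuclear cells on embryonic day 14. Uninjected pups came from dams given DT or saline, and the split between these is not given in the sources used here. F1 cells carry both H2K haplotypes. Donor cells carry H2K-b in mIUT and H2K-d in pIUT, so RNA of donor cells cannot be told apart from that of maternal cells in the first case and of recipient cells in the second. Pups were pooled into 1 library per group. No difference below therefore has a replicate check, no p-value was computed, and each interval covers counting error only.

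Granulocyte precursors make the contents of the primary granules first, in promyelocytes, and those of the secondary and tertiary granules later, in myelocytes and more mature cells. Transcription of the primary-granule genes is largely shut off as maturation goes on, while the proteins stay stored in the mature cell. Mpo encodes myeloperoxidase, which makes hypochlorous acid from hydrogen peroxide and chloride. Elane, Prtn3 and Ctsg encode the serine proteases neutrophil elastase, proteinase 3 and cathepsin G, which are stored in active form after cathepsin C (Ctsc) removes a short N-terminal peptide. Ms4a3 encodes a membrane-spanning protein of granulocyte-monocyte progenitors and promyelocytes and is not a granule enzyme.

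The members lie at 4 places in the genome (GRCm39). Mpo (ENSMUSG00000009350) spans chr11:87684407-87695239 on the plus strand and has 14 exons in its canonical transcript. Prtn3 (ENSMUSG00000057729, chr10:79710310-79719008, plus strand, 5 exons) and Elane (ENSMUSG00000020125, chr10:79722081-79724051, plus strand, 5 exons) are neighbours, 3073 bases apart. Ctsg (ENSMUSG00000040314, chr14:56337338-56340031, minus strand, 5 exons) lies in a cluster of mast cell proteases and granzymes between Mcpt8 and Gzme. Ms4a3 (ENSMUSG00000024681, chr19:11606860-11618215, minus strand, 7 exons) lies in the Ms4a cluster.

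The sequences before the start sites are shown because these genes, on 4 chromosomes, had levels that ran together across the libraries (below). Each is the 250 bases ahead of the start in RefSeq's promoter table (made on GRCm38.p6), located in GRCm39 by a match that was exact and unique, and printed 5′ to 3′ on the strand of the gene. All 5 members were matched in the table. Capitals mark 4 short motifs searched on both strands: GGAAGT (an ETS core, the family of PU.1), CAACNG (a MYB core), GCAAT (one side of a C/EBP site) and TGTGGT (a RUNX core). No marked motif overlapped another.

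Mpo, chr11:87684360-87684609, plus strand: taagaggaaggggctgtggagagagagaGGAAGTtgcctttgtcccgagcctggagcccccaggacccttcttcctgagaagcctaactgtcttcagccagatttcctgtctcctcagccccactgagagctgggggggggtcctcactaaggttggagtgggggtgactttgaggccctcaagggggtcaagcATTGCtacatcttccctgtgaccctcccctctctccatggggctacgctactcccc
Elane, chr10:79721896-79722145, plus strand: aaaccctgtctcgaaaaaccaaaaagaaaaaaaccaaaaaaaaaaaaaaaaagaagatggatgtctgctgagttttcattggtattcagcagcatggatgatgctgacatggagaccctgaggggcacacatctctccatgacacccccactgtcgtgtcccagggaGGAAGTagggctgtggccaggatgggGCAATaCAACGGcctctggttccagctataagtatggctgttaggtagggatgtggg
Prtn3, chr10:79715251-79715500, plus strand: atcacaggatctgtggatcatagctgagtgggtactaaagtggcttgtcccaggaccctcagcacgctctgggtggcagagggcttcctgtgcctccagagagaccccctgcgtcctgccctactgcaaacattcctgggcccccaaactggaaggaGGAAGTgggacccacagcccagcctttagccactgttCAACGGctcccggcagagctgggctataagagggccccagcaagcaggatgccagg
Ctsg, chr14:56340032-56340281, minus strand: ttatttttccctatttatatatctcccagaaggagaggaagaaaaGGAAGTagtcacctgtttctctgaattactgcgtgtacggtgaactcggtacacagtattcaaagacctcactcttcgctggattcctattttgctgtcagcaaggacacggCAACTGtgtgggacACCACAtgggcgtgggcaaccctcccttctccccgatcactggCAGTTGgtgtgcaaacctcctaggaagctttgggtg
Ms4a3, chr19:11618216-11618465, minus strand: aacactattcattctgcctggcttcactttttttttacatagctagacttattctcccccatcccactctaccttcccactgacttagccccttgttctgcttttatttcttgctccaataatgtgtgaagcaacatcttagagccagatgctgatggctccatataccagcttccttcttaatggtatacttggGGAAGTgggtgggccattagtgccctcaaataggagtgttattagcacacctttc

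GGAAGT was found ahead of 5 of 5 members, against 19.7% of the 32851 promoters of the table. CAACNG was found ahead of 3 of 5 (Elane, Prtn3 and Ctsg), against 29.3%, GCAAT ahead of 2 of 5 (Mpo and Elane), against 23.1%, and TGTGGT ahead of 1 of 5 (Ctsg), against 14%. In Elane and Prtn3, the paired proteases of chromosome 10, the same pair of motifs stood at nearly the same distances, with GGAAGT starting 83 and 93 bases and CAACGG 51 and 56 bases ahead of the start. In Ms4a3 GGAAGT began 55 bases ahead of the start, and in Ctsg and Mpo it lay further off, at 205 and 222 bases. GENCODE places the start of the canonical transcript 203, 65 and 53 bases upstream of the RefSeq start for Mpo, Elane and Prtn3, so the counts above hold for RefSeq's starts. By GENCODE's starts the GCAAT matches of Mpo and Elane and the CAACGG of Elane lie inside the transcript and the CAACGG of Prtn3 spans the start, while GGAAGT stays ahead of the start in all 5. A match describes letters in these windows and says nothing of binding.

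The 8 libraries held between 38543457 and 47965130 counts. In the recipient uninjected library, 9.51% of the genes at 10 CPM or more in all 7 others were under 1 CPM, and in the maternal DC control mIUT library 4.86%, against at most 1.26% in each of the other 6. CPM are counts divided by the library's total, scaled by its TMM factor, on edgeR's scale. The sum of 4 Y-linked genes (Ddx3y, Eif2s3y, Kdm5d and Uty), which a dam's cells lack, was 0 counts in the maternal uninjected library. It was 118 CPM in the maternal DC control mIUT, 29.3 in the maternal DC control pIUT and 30.0 in the maternal DC-depleted pIUT library, against 26 to 117 CPM in the recipient libraries. These 3 libraries go against their label for at least part of their RNA, so "maternal" below is the label of the library, and the source of its Y-linked RNA was not tested. The marker of the maternal sort, H2K-b, is carried by F1 cells in every group and by donor cells in mIUT, while donor cells in pIUT carry H2K-d. The sex of the donors is not given in the sources used here. Each maternal comparison but that of the uninjected pups uses at least 1 of the 3 and could not be repeated without them. The study calls the cells mononuclear, yet genes of mature neutrophils, which have segmented nuclei, summed to between 2130 and 167152 CPM. In the lowest and highest of these sums S100a8 was 758 and 66692 CPM and S100a9 468 and 73696.

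Mpo was the most variable member. It stood at 10458 CPM in the recipient DC-depleted pIUT library, 4385 in recipient uninjected, 998 in recipient DC control mIUT and 416 in recipient DC control pIUT. In the maternal libraries it stood at 1106 CPM in DC control mIUT, 210 in DC-depleted pIUT, 0.206 (8 counts) in uninjected and 0.0593 (3 counts) in DC control pIUT. The recipient libraries thus spanned 416 to 10458 CPM, while the maternal libraries fell into a pair at 210 CPM or more and a pair at 0.206 CPM or less. In the recipient DC-depleted pIUT library Mpo had more counts than any other gene, 573302 or 1.38% of the library, and ranked 5 of all genes per kilobase of exon.

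Elane stood at 1806 CPM in recipient DC-depleted pIUT, 1236 in recipient uninjected, 270 in recipient DC control mIUT and 77.2 in recipient DC control pIUT. In the maternal libraries it stood at 459 CPM in DC control mIUT, 174 in DC-depleted pIUT, 6.86 in uninjected and 0 in DC control pIUT. The order of the treatments within each origin was that of Mpo and Elane, unlike Mpo, had a well measured count (267) in the maternal uninjected library. Prtn3, its neighbour, stood at 894, 361, 202 and 55.4 CPM in the same order of recipient libraries. In the maternal libraries Prtn3 was at 270 CPM in DC control mIUT, 81.9 in DC-depleted pIUT, 23.5 in uninjected and 0 in DC control pIUT. Prtn3 had the narrowest range of the 5 over the 7 libraries in which it was detected, and was the member with the highest level per length in maternal uninjected cells.

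Ctsg stood at 563 CPM in recipient DC-depleted pIUT, 166 in recipient uninjected, 70.0 in recipient DC control mIUT and 22.9 in recipient DC control pIUT. Its maternal values were 212 CPM in DC control mIUT, 37.8 in DC-depleted pIUT, 1.75 in uninjected and 0 in DC control pIUT. It was the only member whose second highest library was maternal DC control mIUT instead of recipient uninjected. Ms4a3 stood at 474 CPM in recipient DC-depleted pIUT, 239 in recipient uninjected, 110 in recipient DC control mIUT and 43.2 in recipient DC control pIUT. Its maternal values were 94.0 CPM in DC-depleted pIUT, 66.7 in DC control mIUT, 1.62 in uninjected and 0 in DC control pIUT. Ms4a3 was the only member higher in the maternal DC-depleted pIUT than in the maternal DC control mIUT library.

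**Figure D1:**
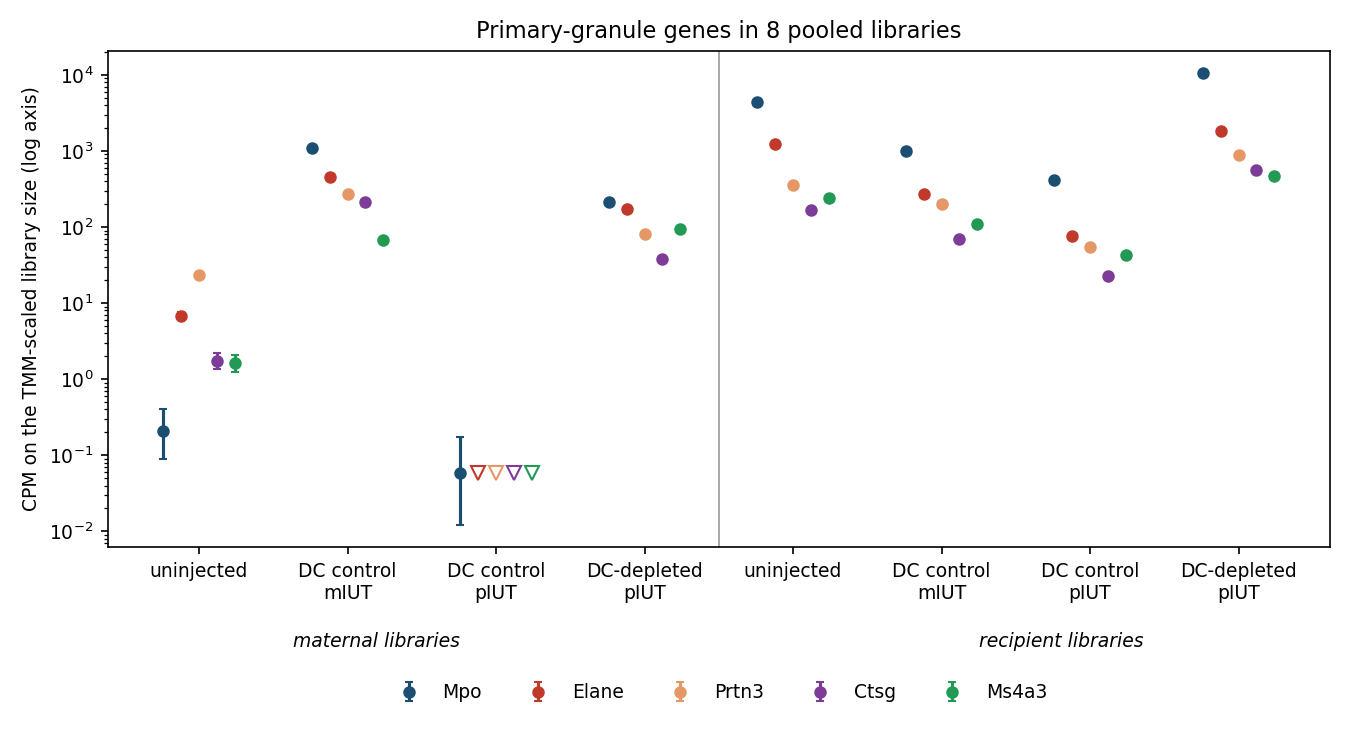
Levels of the 5 members in the 8 pooled libraries, in CPM on a log axis, with bars for the exact 95% Poisson interval of the count (hidden by the points where narrow). Open triangles mark 0 counts, drawn at the level of 3 counts. The recipient DC-depleted pIUT library is highest for all 5 members (Mpo 10458 CPM, Ms4a3 474 CPM), and the maternal DC control pIUT library is lowest, with 3 counts of Mpo and none of the others.

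All 5 members were highest in the recipient DC-depleted pIUT library and lowest in the maternal DC control pIUT library. Neighbours in each member's order of 8 libraries had counting intervals that did not overlap, with 1 exception, Mpo in maternal uninjected and maternal DC control pIUT. Closest among the others was Mpo in maternal and recipient DC control mIUT, 1.11-fold apart. In maternal DC control pIUT, 0 of 39477126 counts allows a level of up to 0.0593 CPM for Elane, Prtn3, Ctsg and Ms4a3, taken as 3 counts. Together the members took 1.88% of all counts in recipient DC-depleted pIUT, 0.644% in recipient uninjected, 0.184% in maternal DC control mIUT and 0.114% in recipient DC control mIUT. They took 0.0693% in recipient DC control pIUT, 0.0512% in maternal DC-depleted pIUT and 0.00342% in maternal uninjected. In bulk RNA such as this, fewer cells of a type and less RNA per cell cannot be told apart.

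The make-up of this RNA differed between libraries. Per kilobase of exon, Mpo and Elane were the leading members in every recipient library, with Mpo between 36.1% and 49.3% of the summed level and Elane between 28.3% and 41.4%. Prtn3 took between 6.88% and 14.4%, Ctsg between 5.30% and 8.79% and Ms4a3 between 4.03% and 8.21% in these libraries. Elane led in 2 maternal libraries, at 39.3% in DC control mIUT, with Mpo at 27.3%, and at 47.5% in DC-depleted pIUT, with Mpo at 16.5%. Ctsg reached its largest share, 17.3%, in maternal DC control mIUT, and Ms4a3 its largest, 13.3%, in maternal DC-depleted pIUT. In maternal uninjected cells the order was different, since Prtn3 made up 58.6% and Elane 30.1% of the summed level per length and Mpo 0.260%. By count, Mpo was 0.607% of the 1319 counts of the members there (95% Wilson interval 0.308 to 1.19%) and between 35.2% and 73.7% in the 6 other libraries with more than 3 such counts.

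**Figure D2:**
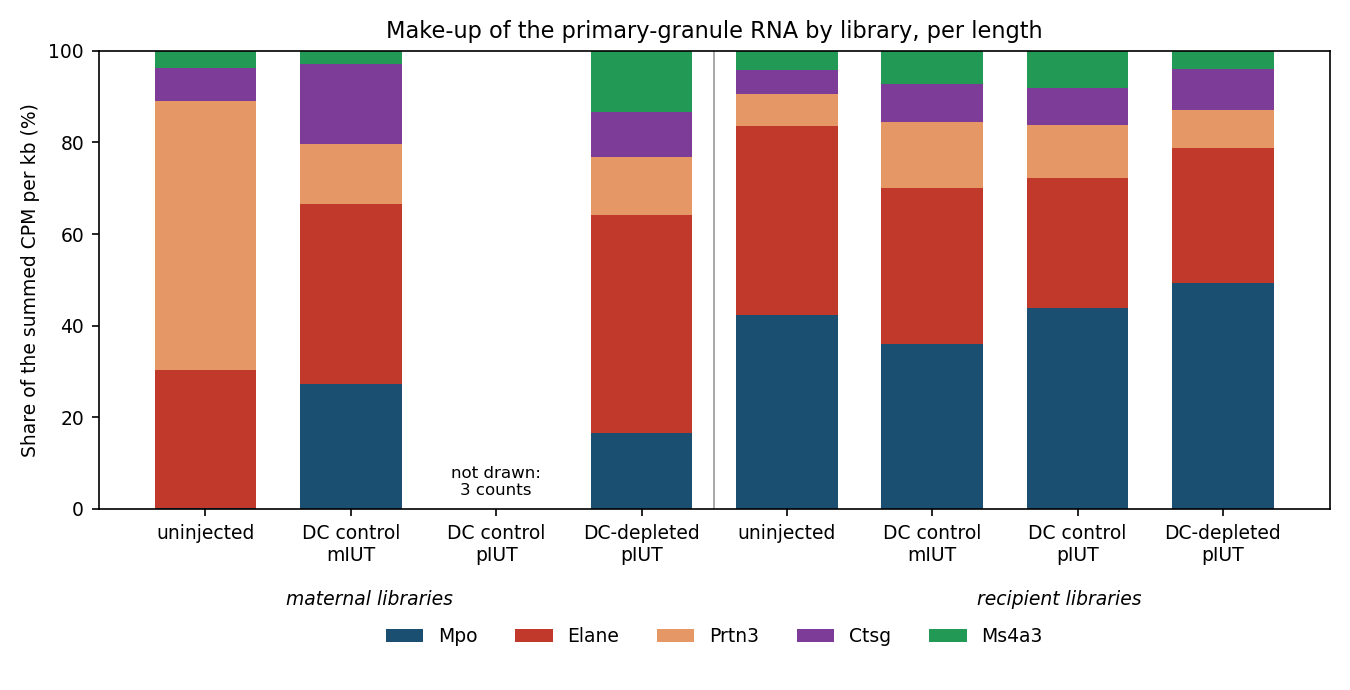
Share of each member in the summed level of the 5 members per kilobase of exon (%), 1 stacked bar per library. Mpo and Elane make up most of every recipient bar, while Prtn3 is 58.6% of the maternal uninjected bar. The maternal DC control pIUT library is not drawn because it held 3 counts of the members.

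To ask how IUT and DC depletion related to these genes, each library was set against the uninjected library of its origin. In maternal cells the DC control mIUT library was at least 4-fold higher for 5 of 5 members, where 16.9% of the 15280 genes tested were at least 4-fold higher. The median of the members was 6.06 on the log2 scale, against -0.60 for all genes. Elane was 66.8-fold higher (95% counting interval 59.2 to 75.7), Prtn3 11.5-fold, Ctsg 121-fold and Ms4a3 41.1-fold. For Mpo the ratio was 5296, with an interval from 2730 to 12459, since it rests on 8 counts in the uninjected library. Y-linked RNA moved with this difference, from 0 counts to 118 CPM, as did the mature neutrophil list, from 2611 to 102200 CPM, and the hepatocyte list, from 253 to 4715 CPM. The B cell list went from 7054 to 406 CPM, the T cell list from 2137 to 478 and the erythroid list from 91683 to 20986, and the part of these was not tested.

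The maternal DC-depleted pIUT library was also higher than maternal uninjected, by at least 4-fold for 4 of 5 members (background 21.8%). Ms4a3 was 57.9-fold higher, Elane 25.3-fold, Ctsg 21.6-fold and Prtn3 3.49-fold (interval 3.24 to 3.77), and the ratio for Mpo was 1007 (519 to 2372). Beside this, the sum of the Y-linked genes was 30.0 CPM against 0 counts, the mature neutrophil list 7942 against 2611 CPM and the erythroid list 181068 against 91683 CPM. The neutrophil rise was mostly S100a8 (4681 against 1027 CPM) and S100a9 (3085 against 952). Mmp9 (7.90 against 107), Retnlg (87.6 against 455), Cxcr2, Il1r2 and Trem1 of that list were lower. Other lists were lower, the B cell list at 36.7 against 7054 CPM, the monocyte list at 1566 against 14972, the progenitor list at 130 against 2172 and the T cell list at 387 against 2137. The part of these was not tested. The maternal DC control pIUT library went the other way, with 4 of 5 members at least 4-fold lower than uninjected (background 22.5%). Prtn3 was at least 396-fold lower, Elane at least 116-fold, Ctsg at least 29.5-fold and Ms4a3 at least 27.3-fold, against a floor of 3 counts in the library. Mpo, at 3 against 8 counts, was 3.47-fold lower with an interval that holds equal levels (0.832 to 20.3), so a difference was not detectable at this depth. The monocyte list went from 14972 CPM in uninjected to 1545 in this library, the B cell list from 7054 to 76.7, the T cell list from 2137 to 126, the secondary-granule list from 3364 to 656 and the Y-linked sum from 0 counts to 29.3 CPM, and their part was not tested. The fall of the secondary-granule list was mostly Chil3 (2694 to 60.2 CPM). Camp, Lcn2, Cd177, Fcnb and Ltb4r1 were also lower, while Ltf, Ngp, Olfm4 and Mmp8 were higher.

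In recipient cells both DC control libraries were lower than uninjected for all 5 members. The DC control mIUT library was at least 4-fold lower for 2 of 5 members (background 16.1%), namely Mpo, 4.39-fold (4.34 to 4.45), and Elane, 4.57-fold (4.47 to 4.69). Ctsg was 2.37-fold, Ms4a3 2.17-fold and Prtn3 1.79-fold lower. The DC control pIUT library was at least 4-fold lower for 5 of 5 members (background 12.2%), from 16.0-fold for Elane and 10.5-fold for Mpo to 7.23-fold for Ctsg, 6.52-fold for Prtn3 and 5.54-fold for Ms4a3. The medians of the members were -1.24 and -2.85 on the log2 scale, while those of all genes were 1.26 and 1.13, so the members lay further below the other genes than their folds alone show. Lists of other cells moved in both directions. In uninjected, mIUT and pIUT cells in turn, the hepatocyte list stood at 14277, 208 and 76.9 CPM, the eosinophil list at 7715, 362 and 1618, and the erythroid list at 124567, 211 and 40422. The basophil and mast cell list stood at 177, 721 and 625 CPM, of which Hdc alone was 177, 637 and 198. Every other gene of it was at 0.269 CPM or less in uninjected cells and higher in pIUT than in mIUT. The T cell list stood at 549, 656 and 3672 CPM, and the monocyte list at 25678, 36978 and 11193. Their part in the values of the members was not tested.

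The recipient DC-depleted pIUT library was the one recipient library above uninjected. Ctsg was 3.40-fold higher (3.31 to 3.48), Prtn3 2.48-fold, Mpo 2.39-fold, Ms4a3 1.99-fold and Elane 1.46-fold, and 0 of 5 members reached 4-fold (background 42.9% higher). The median of the members, 1.25, was close to that of all genes, 1.23, so against uninjected cells the members did not stand apart from the table as a whole. From uninjected to DC-depleted pIUT the hepatocyte list went from 14277 to 1590 CPM, the erythroid list from 124567 to 26144, the eosinophil list from 7715 to 1513 and the basophil and mast cell list from 177 to 1628. Of the last list, Hdc alone was 177 and 164 CPM. The recipient uninjected library is the one short of 9.51% of widely detected genes, and the part of these in the comparisons was not tested.

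The effect of DC depletion was asked within pIUT, where the members were higher in the DC-depleted library in both origins. In recipient cells DC-depleted pIUT was at least 4-fold higher than DC control pIUT for 5 of 5 members (background 13%). Mpo was 25.2-fold higher (24.8 to 25.5), Ctsg 24.5-fold (23.1 to 26.1), Elane 23.4-fold (22.6 to 24.2), Prtn3 16.2-fold (15.5 to 16.8) and Ms4a3 11.0-fold (10.5 to 11.5). Their median was 4.55 on the log2 scale, against 0.12 for all genes. In maternal cells 5 of 5 members were at least 4-fold higher with DC depletion (background 24.4%). The bounds were at least 2934-fold for Elane, 1584-fold for Ms4a3, 1381-fold for Prtn3 and 638-fold for Ctsg, and Mpo had a ratio of 3548 (1214 to 17210). The median of all genes there was 0.10. Between the same maternal libraries the mature neutrophil list went from 2130 CPM in DC control to 7942 in DC-depleted pIUT. The secondary-granule list went from 656 to 3123. S100a8 (758 to 4681 CPM), S100a9 (468 to 3085) and Camp (39.6 to 2077) made most of these rises. Mmp9 (425 to 7.90), Il1r2 (176 to 2.70), Trem1 (117 to 3.85) and Cxcr2 (73.3 to 2.27) were lower. So were Mmp8 (158 to 16.8), Cd177 and Ltf of the secondary-granule list. The hepatocyte list went from 270 to 874 and the progenitor list from 786 to 130. The part of these lists was not tested.

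Markers of other cells differed between the same recipient libraries. The basophil and mast cell list, some of whose genes lie in the Ctsg and Ms4a clusters, summed to 1628 CPM in DC-depleted pIUT and 625 in DC control pIUT, with 5 of 10 genes at least 4-fold higher. Among them Cma1 stood at 265 against 32.7 CPM and Tpsb2 at 357 against 39.9 CPM. The hepatocyte list was at least 4-fold higher for 10 of 10 genes (1590 against 76.9 CPM) and the megakaryocyte list for 8 of 10 (109 against 18.0 CPM), while the eosinophil list had 0 of 10 genes 4-fold apart in either direction (background 19.5%). The T cell list was lower in DC-depleted pIUT, at 923 against 3672 CPM, as was the monocyte list, at 6142 against 11193. The parts of these cell types in the values of the members were not tested.

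The donor strain was compared between the DC control libraries. In recipient cells pIUT was lower than mIUT for all 5 members, 3.64-fold for Prtn3, 3.50-fold for Elane, 3.06-fold for Ctsg, 2.55-fold for Ms4a3 and 2.40-fold for Mpo, with 0 of 5 at 4-fold or more (background 13.4% lower). Scaling by library size alone brought these differences nearer to 0, to -1.15 on the log2 scale for Prtn3 and -0.55 for Mpo, with the median of all genes at 0.81 instead of 0.10. In maternal cells 5 of 5 were at least 4-fold lower in pIUT (background 18.5%), by at least 7733-fold for Elane and at least 1124-fold for Ms4a3. From mIUT to pIUT the maternal mature neutrophil list went from 102200 to 2130 CPM, the secondary-granule list from 101460 to 656, the erythroid list from 20986 to 130614 and the Y-linked sum from 118 to 29.3. The recipient secondary-granule list went from 183181 to 32218 CPM and the erythroid list from 211 to 40422, and the part of these was not tested.

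**Figure D3:**
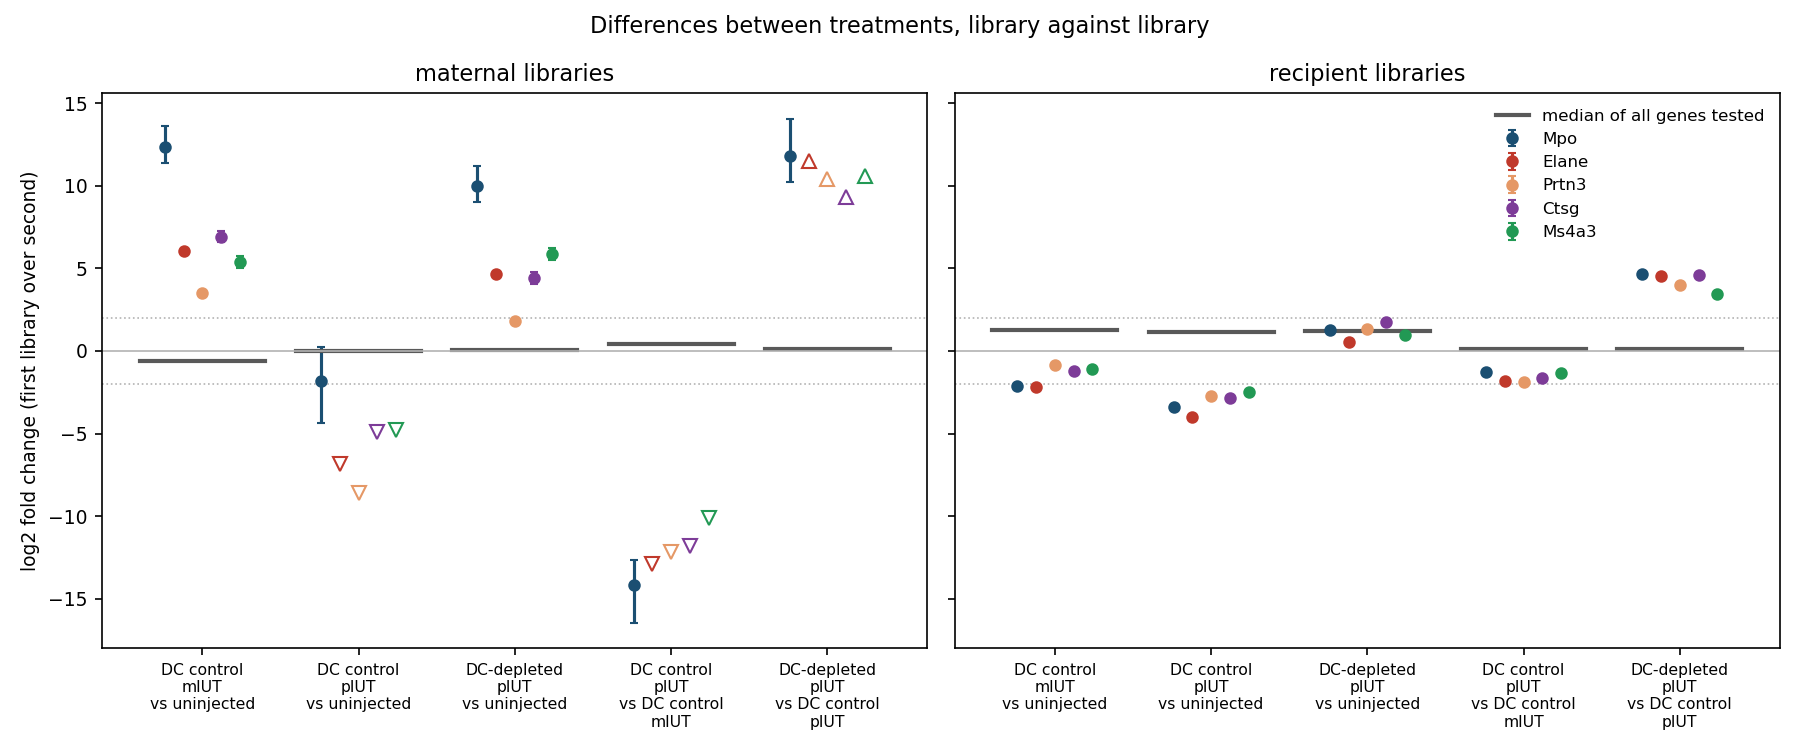
Log2 fold changes of the members for 5 comparisons of treatments in maternal (left) and recipient (right) libraries. Filled points carry 95% counting intervals, open triangles are bounds against a library at 0 counts, short grey bars are the median of all genes tested and dotted lines mark 4-fold. The right panel shows the members below the grey bar in both DC control comparisons with uninjected cells, and 3.46 to 4.65 above 0 for DC-depleted against DC control pIUT.

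Maternal and recipient cells of the same pups were compared last. All 5 members were at least 4-fold lower in the maternal library in uninjected pups (background 14.2%), from 15.4-fold for Prtn3 (14.4 to 16.5) to 180-fold for Elane (160 to 204), with a ratio of 21036 for Mpo. The same held in DC control pIUT (background 23.4%), by at least 386-fold for Ctsg and at least 1302-fold for Elane, and in DC-depleted pIUT (background 25.7%), from 5.05-fold for Ms4a3 to 49.7-fold for Mpo. DC control mIUT was the exception. There 0 of 5 members were 4-fold apart in either direction (background 45.8%), and maternal cells were 3.02-fold higher for Ctsg, 1.70-fold for Elane, 1.34-fold for Prtn3 and 1.11-fold for Mpo and 1.65-fold lower for Ms4a3. In this pair Y-linked RNA stood at 118 CPM in the maternal and 117 CPM in the recipient library, while the erythroid list stood at 20986 against 211 CPM, the hepatocyte list at 4715 against 208 and the B cell list at 406 against 75.1. The mature neutrophil list stood at 2611 CPM in maternal and 8027 in recipient cells of uninjected pups, at 2130 and 26106 in DC control pIUT, at 7942 and 4582 in DC-depleted pIUT and at 102200 and 167152 in DC control mIUT, and its part was not tested. In DC-depleted pIUT the higher maternal sum was mostly S100a8 (4681 against 2325 CPM) and S100a9 (3085 against 2063). Mmp9 (7.90 against 41.8), Cxcr2, Il1r2, Mmp25 and Trem1 were lower in that maternal library.

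Genes that process and store the granule enzymes are given next. Ctsc, the activating protease, was highest in recipient DC-depleted pIUT at 578 CPM, against 186 in recipient DC control pIUT, and lowest in maternal DC control pIUT at 66.8 CPM. It was also at 494 CPM in maternal uninjected cells, where Elane stood at 6.86. Calr, the chaperone calreticulin that assists myeloperoxidase folding, stood at 819 CPM in recipient DC-depleted pIUT and at 109 in recipient DC control mIUT. Srgn, the proteoglycan core that holds granule proteases, ranged from 259 to 1311 CPM. Serpinb1a, an inhibitor of the serine proteases, followed another order, with 1968 CPM in recipient and 1243 CPM in maternal DC control mIUT and 9.79 in maternal DC control pIUT. In recipient DC-depleted against DC control pIUT, 2 of 10 genes of this list were at least 4-fold higher and 0 lower (background 13% and 6.52%), with a median of 0.79 against 0.12 for all genes.

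Other proteins found in primary granules are shared with the lysosomes of many cells. Lyz2, lysozyme, which monocytes and macrophages also make, reached 35300 CPM in recipient DC control mIUT and 4890 in recipient DC-depleted pIUT, where Mpo stood at 998 and 10458 CPM. In that list 0 of 9 genes tested were 4-fold apart between recipient DC-depleted and DC control pIUT, against 19.5% of all genes, a share too small to set a list of this size apart. Bpi had 0 counts in all 8 libraries.

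Transcription factors of the lineage differed in the libraries where they were highest. Myb, needed for progenitor growth, stood at 99.9 CPM in recipient DC control pIUT, 90.1 in recipient DC-depleted pIUT and 68.8 in recipient uninjected, and at 21.8 in maternal DC-depleted pIUT, with 0 counts in maternal DC control mIUT and pIUT. Cebpe, which drives the secondary-granule program, was highest in the 2 DC control mIUT libraries, at 232 CPM in recipient and 172 in maternal cells, and stood at 65.2 in recipient DC control pIUT and 25.5 in recipient DC-depleted pIUT. Hoxa9, a factor of early progenitors, was highest in maternal DC control mIUT at 14.6 CPM. Gfi1, a repressor needed for granulocyte maturation, was between 22.9 and 25.6 CPM in the 3 recipient IUT libraries and at most 2.60 elsewhere. Spi1, which encodes PU.1, ranged from 12.4 CPM in maternal DC-depleted pIUT to 1233 in recipient DC control mIUT. Progenitor receptors Kit and Cd34 were highest in recipient DC-depleted pIUT, at 91.0 and 155 CPM, against 7.88 and 45.5 in recipient DC control pIUT. As lists in that comparison, the regulators had 3 of 10 genes at least 4-fold higher and 0 lower, and the progenitor genes 1 higher (Kit) and 1 lower (Cd33, 23.1 against 150 CPM), where 13% of all genes were higher and 6.52% lower.

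The later neutrophil genes did not share the order of the primary-granule genes. Between recipient DC-depleted and DC control pIUT, 8 of 10 secondary-granule genes and 10 of 10 mature neutrophil genes were at least 4-fold lower (background 6.52%), where the primary-granule genes were 11.0- to 25.2-fold higher. Ltf, lactoferrin, stood at 484 against 5558 CPM and Camp, cathelicidin, at 1176 against 4771, while Fcnb, ficolin-B, was 413 against 209 CPM. Between recipient DC control mIUT and uninjected, 9 of 10 secondary-granule and 10 of 10 mature neutrophil genes were at least 4-fold higher (background 42.6%), where the members were lower. In maternal DC control mIUT against uninjected, all 3 groups were higher, with 9 of 10 secondary-granule and 10 of 10 mature neutrophil genes past 4-fold beside the 5 members.

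Per kilobase, the summed level of the members over that of the secondary-granule genes was 1.86 in recipient DC-depleted pIUT and 0.914 in recipient uninjected. In the maternal DC-depleted pIUT library it was 0.124, followed by 0.0187 in maternal DC control mIUT, 0.0134 in recipient DC control pIUT, 0.0121 in maternal uninjected and 0.00724 in recipient DC control mIUT. Single genes weigh on these ratios. Chil3 was 1539 of the 1917 CPM per kb of secondary-granule genes in maternal uninjected, and Camp 2379 of 2987 in maternal DC-depleted pIUT. The 2 DC-depleted libraries and the recipient uninjected library thus had the most primary-granule RNA for their secondary-granule RNA. In maternal DC control pIUT the secondary-granule and mature neutrophil lists were present at 349 and 1501 CPM per kb, where the members together stood at 0.0173.

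**Figure D4:**
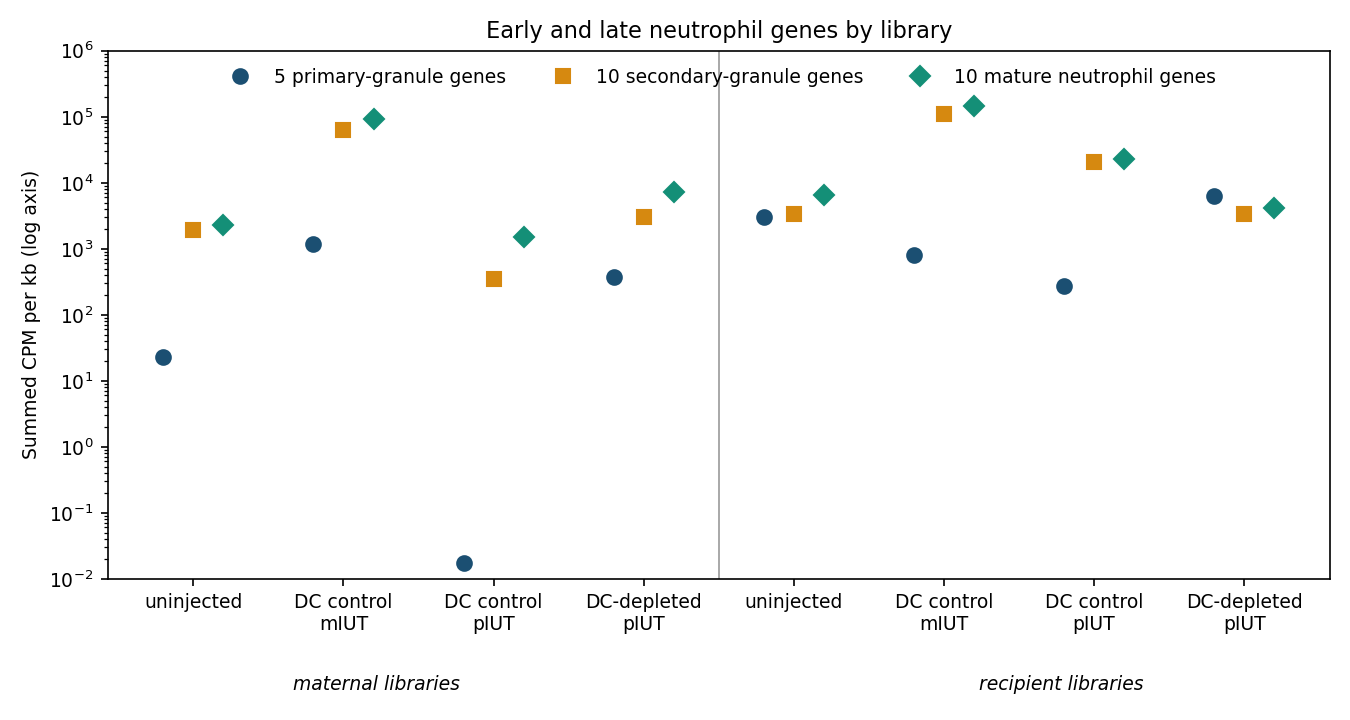
Summed level per kilobase of exon (log axis) of the 5 primary-granule, 10 secondary-granule and 10 mature neutrophil genes in each library. The primary-granule sum is below both later sums in 7 libraries and above them in recipient DC-depleted pIUT, at 6195 against 3333 and 4137 CPM per kb.

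Levels of each member followed the mean of the other 4 closely over the 8 libraries, on the scale of log2(CPM + 1). Pearson's r was 0.993 for Elane, 0.983 for Ctsg, 0.980 for Ms4a3, 0.968 for Mpo and 0.948 for Prtn3, and between 0.944 and 0.989 for all 5 without maternal DC control pIUT. Prtn3 was least like the rest, which goes with its level in maternal uninjected cells. These values describe 8 libraries that share a normalization.

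Among 12045 other genes with at least 10 CPM in at least 1 library, the 10 whose pattern was most like the mean of the members were, in order, Ptgr1 (r = 0.965), Med14, Snx7, Fcnb (0.920), Gusb, Mbd1, Pdcd7, Prss57 (0.893), Vwa8 and Ncln (0.878). Ptgr1 stood at 67.1 CPM in recipient DC-depleted pIUT, between 22.2 and 53.4 CPM in 5 other libraries, 3.03 in maternal uninjected and 0 in maternal DC control pIUT. Prss57, which encodes neutrophil serine protease 4 and lies 83515 bases from Prtn3, stood at 162 CPM in recipient DC-depleted pIUT, 74.2 in recipient DC control pIUT, 72.1 in recipient DC control mIUT and 18.4 in recipient uninjected, where 4 of 5 members had their second highest level. In maternal cells it stood at 83.2 CPM in DC control mIUT, 32.2 in DC-depleted pIUT, 2.88 in uninjected and 0 in DC control pIUT. Without the maternal DC control pIUT library, 2 of the 10 (Ptgr1 and Snx7) remained, so most of the list rests on that library.

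Genes next to the members had levels of their own. Cfd, 2617 bases beyond Elane, was at 0 in 7 libraries and 0.164 CPM in recipient DC-depleted pIUT. Lpo, the lactoperoxidase gene 2014 bases beyond Mpo, was at 18.4 CPM in maternal DC control pIUT, where Mpo had 3 counts, and at 0.547 CPM or 0 elsewhere. Mcpt8 beside Ctsg, a basophil protease, was at 175 CPM in recipient DC-depleted pIUT and 114 in recipient DC control pIUT, but had 0 counts in recipient uninjected, where Ctsg stood at 166 CPM. Ms4a2 beside Ms4a3 had 0 counts in 4 libraries and reached 24.3 CPM in recipient DC-depleted pIUT. Plppr3 overlaps Prtn3 by 196 bases on the opposite strand, and strand use in the counting is not given in the sources used here, so reads of the overlap are uncertain. Plppr3 stood at 41.7 CPM in maternal DC control pIUT, where Prtn3 had 0 counts.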

How the data were processed

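The authors deposited estimated counts per gene, which are the salmon output of an nf-core pipeline on GRCm39 and carry no normalization. The methods name featureCounts for this step, while the deposited values are fractional. The submitters' processing notes also name bcl2fastq and StringTie. The clonotype tables of the series were not used here, and 0 columns of the count table lacked a sample.

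Estimated counts were rounded to whole numbers. TMM factors and log2 fold changes came from edgeR 4.0.16 in R 4.3.3 (exact test at the study's dispersion of 0.4, default prior count), with no p-value, because each group is 1 library. All 14 pairs of libraries listed for the study were compared. A gene was tested in a pair where it had more than 3 counts in at least 1 library. A fold against 0 counts is a bound at a floor of 3 counts per library. With 3 counts (Mpo in maternal DC control pIUT) the ratio is given with its interval. Intervals are at the 95% level, exact Poisson for levels, exact binomial for ratios and Wilson for shares. The total of 38543457 to 47965130 counts per library sets their width, and they cover counting error only. GENCODE models on GRCm39 gave lengths and positions (97.99% of gene identifiers were matched), and RefSeq gave promoters. The calculation was tested on simulated data.

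The members, the 19 gene lists (2 of their genes, Ahsp and Vpreb1, had no match), the 4-fold limit and the motifs were chosen with earlier results of these data known, and the Y-linked genes after values were seen. The genes named are the members, genes of the lists, the 10 most like the members in pattern and the nearest 2 on each side. Alternatives were DESeq2 1.42.0 size factors, library size alone, TMM over genes with at least 10 counts in each library, TMM without 2 libraries, a prior count of 2, a floor of 10 counts, and 2- and 8-fold limits. Python 3.11.15, pandas 2.3.3, numpy 2.4.6, scipy 1.17.1 and matplotlib 3.10.9 were used.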

Additional observations from a re-analysis of the deposited data

Results flagged for a closer look

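The difference between DC control mIUT and uninjected libraries had opposite directions in the 2 origins. For all 5 members the maternal DC control mIUT library was higher than maternal uninjected and the recipient DC control mIUT library lower than recipient uninjected. The maternal minus the recipient log2 fold change was 14.51 for Mpo, 8.256 for Elane, 8.159 for Ctsg, 6.48 for Ms4a3 and 4.367 for Prtn3. Most of this is the gap between the uninjected libraries, where maternal cells stood -14.36 from recipient cells for Mpo (8 counts in the maternal library) and -7.49 for Elane, while in DC control mIUT the origins differed by 0.15 and 0.76 and 0 of 5 members were 4-fold apart. With 1 library per group the difference was not tested. Maternal DC control mIUT is a library with Y-linked RNA at 118 CPM, and recipient uninjected the one short of 9.51% of widely detected genes.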

How the results depend on the processing

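None of the 70 log2 fold changes of the members (69 with the higher floor) turned its sign under another scaling, another prior count or another floor, and the largest shift of a member was 0.711 with library size alone, 0.313 with DESeq2 size factors, 0.259 with TMM over genes with at least 10 counts in each library, 0.321 with a prior count of 2 and 1.74 with a floor of 10 counts. Library size alone moved the median of all genes by between -0.627 and 0.711, lowest for DC-depleted pIUT, maternal against recipient (where Mpo went from -5.64 to -6.26), and highest for recipient DC control pIUT against mIUT. TMM without the recipient uninjected and maternal DC control mIUT libraries rescales the other libraries alike, so it leaves ratios as they were by construction and says nothing of stability. Counts of members past the limit moved by over 1.5 times in the following cases. With a limit of 2-fold, 4 members instead of 2 were lower in recipient DC control mIUT than in uninjected, 3 instead of 0 were higher in recipient DC-depleted pIUT than in uninjected, 5 instead of 0 were lower in recipient DC control pIUT than in mIUT, and 1 instead of 0 was higher in maternal than recipient DC control mIUT. With a limit of 8-fold, 0 were lower in recipient DC control mIUT and 2 in recipient DC control pIUT than in uninjected, and with library size alone 1 was higher in recipient DC-depleted pIUT than in uninjected. By less, 5 instead of 4 passed 2-fold in maternal DC control pIUT (lower) and maternal DC-depleted pIUT (higher) against uninjected, and 4 instead of 5 passed 8-fold lower in maternal than recipient DC-depleted pIUT. Of the 10 genes most like the members, 6 returned with library size alone, 7 among genes with at least 50 CPM, 7 with a pseudocount of 0.1 and 2 without maternal DC control pIUT, an alternative chosen after seeing the data. No paired analysis was possible because each group is 1 library, so any 2 groups share at most 1 replicate number. Maternal and recipient libraries of the same pups were compared directly.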

Other observations

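The NADPH oxidase list, whose enzyme supplies the hydrogen peroxide that myeloperoxidase uses, did not follow Mpo. Its 6 genes summed to 13226 CPM in recipient DC control mIUT, 6777 in maternal DC control mIUT and 3766 in recipient DC control pIUT, and to 2094 in recipient DC-depleted pIUT, where Mpo was highest. In maternal uninjected cells the oxidase list stood at 3686 CPM beside 0.206 CPM of Mpo. Epx, the eosinophil peroxidase closely related to Mpo, was highest in recipient uninjected at 891 CPM, against 143 in recipient DC-depleted pIUT, 128 in recipient DC control pIUT, 23.2 in recipient DC control mIUT and 6.15 in maternal DC control pIUT, with 0 counts in the other 3 libraries.

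Granzymes of the cluster that holds Ctsg were found in maternal uninjected cells, with Gzmd at 134, Gzmf at 131 and Gzmg at 101 CPM, where Ctsg stood at 1.75 CPM. Gzmf and Gzmg had 0 counts in the other 7 libraries, and Gzmd was at 17.4 CPM in recipient uninjected and at 0 in the other 6. Gzmb had another order, with 648 CPM in maternal DC control mIUT, 181 in maternal uninjected and 154 in maternal DC control pIUT. It stood at 212 CPM in recipient DC-depleted and 165 in recipient DC control pIUT, and at 8.89 or less elsewhere.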
